A study of Mus musculus with 4 samples.

Results

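Gene expression in MC3T3-E1 cells after exposure to any of 3 inhibitors of glucosylceramide synthase was set against cells without inhibitor. The pooled comparison took the mean of the arrays labelled Miglustat, D-PDMP and D-PPMP minus the array labelled Control, so it used all 4 arrays of the series, with 3 arrays on one side and 1 on the other. MC3T3-E1 is an osteoblastic cell line from mouse calvaria. Cells had been exposed to Miglustat at 50 µM, D-PDMP at 10 µM or D-PPMP at 1.0 µM for 4 days, then replated and cultured for a further 24 h before total RNA was taken. The labels name no vehicle for the Control, and 1 RNA sample stood for each group. The doses differed between the compounds, so their values are given side by side and no compound was ranked against another. All 4 arrays lay on 1 slide in the order Control, Miglustat, D-PDMP and D-PPMP, so group and slide position cannot be told apart.

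Glucosylceramide synthase, encoded by Ugcg, adds glucose to ceramide and so makes the precursor of most glycosphingolipids, a class of membrane lipids that includes the gangliosides. Miglustat is an iminosugar (N-butyl-deoxynojirimycin). D-PDMP and D-PPMP are ceramide analogues with the same phenyl and morpholino groups and differ in the length of the acyl chain, decanoyl in D-PDMP and palmitoyl in D-PPMP. Pooling the 3 compounds asks which expression differences from Control were common to chemically different agents with the same target enzyme.

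Of 56605 non-control probes, 31514 were well above background on all 4 arrays, and these represented 14004 of 22911 named genes. A level is given below as a multiple of the array's 75th percentile signal, and a difference is the log2 ratio of an inhibitor array to Control, so that 1 is a doubling. The ± after a pooled difference is the SD of the 3 inhibitor arrays. That SD mixes the unlike effects of 3 compounds with culture and array variation, and Control has no spread of its own. A gene was called when the pooled difference reached 1.5-fold, all 3 inhibitor arrays lay on the same side of Control, and the gap from Control to the nearest of them exceeded the range of the 3. No test accompanies a call, since an exact permutation test of 1 array against 3 cannot go below p = 0.25. The number of arrays limits the precision of every value. Between 57.4% and 62.4% of probes were well above background on an array, the lowest share being that of Control. No spot was saturated.

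By that rule, 72 genes (0.514% of 14004) were called higher with the inhibitors and 28 (0.2%) lower. The split depended on the scaling, with 31 higher and 54 lower after quantile normalization and 31 and 63 after cyclic loess. Without the Miglustat array it was 166 and 96. The same rule was then run with each inhibitor array set apart from the other 3 arrays. It called 193 genes (1.38%) with Miglustat set apart, 43 (0.307%) with D-PDMP and 94 (0.671%) with D-PPMP. The Control array thus stood apart from the inhibitor arrays in 100 genes, which was fewer than for Miglustat and close to the number for D-PPMP. Limma was also fitted with the array set apart against the other 3 arrays as 1 group. The 3 inhibitor arrays formed that group only with Control set apart. Each fit leaves 1 array without a spread of its own, so it cannot measure variation on that side. The limma outcome for Control is given with the processing settings below.

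Most of the 14004 genes differed little between the pooled inhibitors and Control. The difference stayed within 1.5-fold for 98.7% of them, with a median of -0.01 and a median SD among the inhibitor arrays of 0.085. All 3 inhibitor arrays were above Control for 21.1% of genes and below it for 26.4%. These shares stand beside the counts of every gene list below. With Miglustat set apart the other 3 arrays were all above it for 33.9% of genes and all below it for 24.9%. The shares were 17.6% and 23.7% for D-PDMP, and 27.4% and 25.0% for D-PPMP. Called genes were mostly dim. Of the 100 genes called against Control, 87 belonged to the dimmest of 4 equal bins by mean level.

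**Figure D1:**
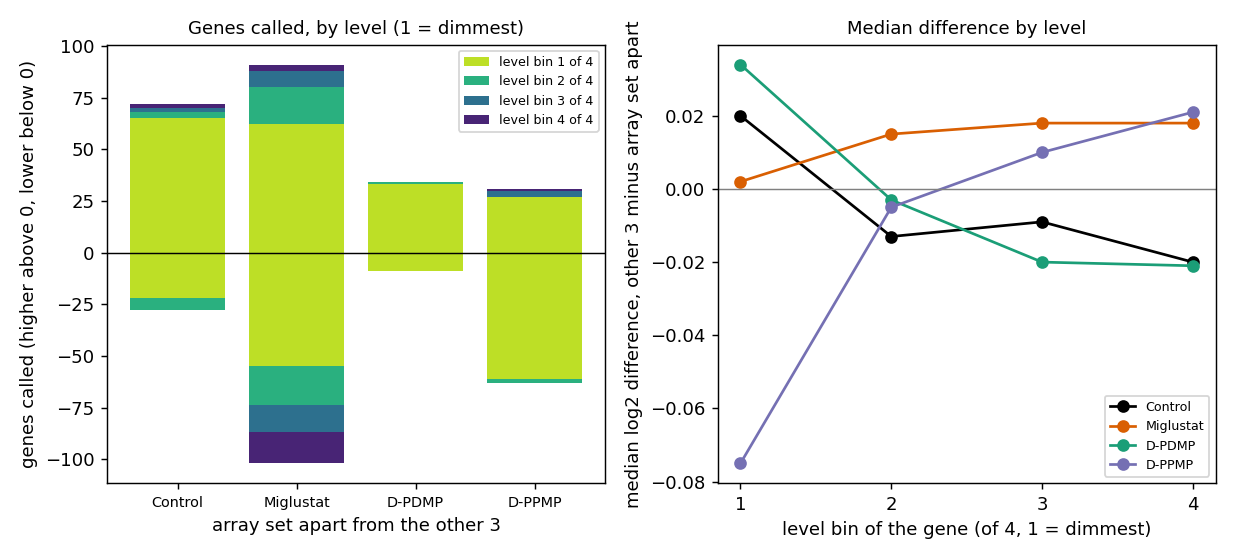
The left panel plots the number of genes called (higher above 0, lower below 0) with each array set apart from the other 3, coloured by 4 bins of level, and the right panel plots the median log2 difference in each bin. With Control set apart, 87 of the 100 called genes were in the dimmest bin, and only Miglustat had more calls than Control.

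Among the 7002 genes above the median level, the inhibitors were called higher for 4 genes and lower for none. The 4 were Nr4a1, Egr2, Egr1 and Ptgs2. Nr4a1 encodes an orphan nuclear receptor, Egr1 and Egr2 encode zinc finger transcription factors, and Ptgs2 encodes cyclooxygenase-2, the inducible enzyme of prostaglandin synthesis. All of them are known as genes that respond within minutes to hours to growth factors, serum or mechanical stimuli. With the other arrays set apart, these 7002 genes held 39 calls for Miglustat, 0 for D-PDMP and 4 for D-PPMP. The 4 genes called with D-PPMP set apart were Pappa, Cthrc1, Niban1 and Megf6, none of which was called against Control.

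Nr4a1 showed the closest match among the inhibitors. Its level was 2.22 in Control, 5.19 for Miglustat, 5.22 for D-PDMP and 5.11 for D-PPMP. The pooled difference was 1.22 ± 0.016 (n = 3), or 2.33-fold, and the 3 inhibitor arrays were nearly superimposed and well apart from Control. Egr2 had a level of 6.34 in Control, 10.7 for Miglustat, 15 for D-PDMP and 15.9 for D-PPMP, a pooled difference of 1.1 ± 0.31 (n = 3). Egr1 had a level of 11.9 in Control, against 19.7, 26.9 and 23.2 with Miglustat, D-PDMP and D-PPMP, a pooled difference of 0.95 ± 0.23 (n = 3). For both Egr genes the Miglustat array was the lowest of the 3 inhibitor arrays. Ptgs2 had levels of 2.40 in Control and 3.91, 4.29 and 3.53 with the inhibitors in the same order, a pooled difference of 0.70 ± 0.14 (n = 3). Each of the 4 genes was represented by 1 probe here, so no other probe was compared.

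Promoters of 3 genes are shown because genes of this group were called together and their control regions are known to carry elements bound by CREB (cyclic AMP response elements) and by serum response factor (CArG boxes). The sequences are the 250 bases before a RefSeq transcription start in GRCm38.p6, read 5′ to 3′ on the gene's strand. Capitals mark the short response element TGACG on either strand (CGTCA on the other) and, in Egr2, a CArG box. Nr4a1 is at chr15:101266596-101266845 on the plus strand, Egr2 at chr10:67537619-67537868 on the plus strand and Egr4, which is described further on, at chr6:85513590-85513839 on the minus strand.
Nr4a1: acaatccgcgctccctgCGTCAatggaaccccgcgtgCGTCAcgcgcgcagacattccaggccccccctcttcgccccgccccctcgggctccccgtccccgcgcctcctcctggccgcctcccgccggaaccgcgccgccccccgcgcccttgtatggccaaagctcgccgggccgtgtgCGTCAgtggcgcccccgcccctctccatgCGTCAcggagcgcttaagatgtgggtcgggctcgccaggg
Egr2: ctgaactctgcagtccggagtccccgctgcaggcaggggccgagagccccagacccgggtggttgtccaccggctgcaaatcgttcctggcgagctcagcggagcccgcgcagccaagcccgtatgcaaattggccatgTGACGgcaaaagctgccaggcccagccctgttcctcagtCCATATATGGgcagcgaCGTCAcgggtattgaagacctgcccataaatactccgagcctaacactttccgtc
Egr4: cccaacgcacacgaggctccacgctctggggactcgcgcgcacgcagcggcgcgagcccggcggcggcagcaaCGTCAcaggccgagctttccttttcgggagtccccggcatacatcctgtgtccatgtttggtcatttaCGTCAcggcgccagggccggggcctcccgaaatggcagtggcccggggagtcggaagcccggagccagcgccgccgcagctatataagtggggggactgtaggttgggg
The Nr4a1 window held 4 short elements, the Egr2 window 2 short elements and 1 CArG box, and the Egr4 window 2 short elements. Egr2 had 5 windows in the table, of which the first (chr10:67535249-67535498) held none of these elements and the next (chr10:67537316-67537565) held a CArG box but no short element. Among the immediate early genes, 22 had a promoter in the RefSeq table and 15 of these held a short element within the 250 bases, against 19.8% of 27025 genes. The full element TGACGTCA, which contains the short one, was held by 3 of the 22 (1.77% of all genes), a CArG box by 3 (1.62%) and the EGR motif GCGTGGGCG by 1 (0.622%). Of the 22 genes, 14 had all 3 inhibitor arrays above Control. Of these 14, 10 held the short element, beside 15 of all 22. Such elements were already known in these genes, so their excess over all genes is no result of these arrays. A match of letters is not a bound site.

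The immediate early genes as a list had 29 members, all measured. All 3 inhibitor arrays were above Control for 19 of the 29 and below it for 0, beside 21.1% and 26.4% of all genes. The median pooled difference was 0.24, against -0.01 over all genes, with medians of 0.34, 0.28 and 0.20 for Miglustat, D-PDMP and D-PPMP. With Miglustat set apart, the other 3 arrays were all above it for 3 members and all below it for 11. The corresponding counts were 1 and 7 for D-PDMP, and 6 and 11 for D-PPMP. Under the other scalings the list's median ranged from 0.21 to 0.26, with all 3 inhibitor arrays above Control for 19 or 20 members and below it for 0 or 1.

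Within the list, 4 members were called: Nr4a1, Egr2, Egr1 and Egr4. Egr4, a dim member of the Egr family, had a level of 0.0705 in Control and 0.145, 0.112 and 0.139 with Miglustat, D-PDMP and D-PPMP, a pooled difference of 0.90 ± 0.20 (n = 3). With normexp background correction, which damps dim signals, the Egr4 difference was 0.18 and not called. Egr3 had a larger pooled difference than any called member, and its values were looked at after the calls were known. Its level was 0.203 in Control, 0.447 for Miglustat, 0.671 for D-PDMP and 1.03 for D-PPMP, so the pooled difference was 1.73 ± 0.60 (n = 3). The range of the inhibitor arrays (1.20) just exceeded the gap to Control (1.14), which kept Egr3 from being called. A further Egr3 probe, well above background on all arrays, gave 1.47, 2.15 and 2.67 for Miglustat, D-PDMP and D-PPMP (2.10 ± 0.60, n = 3). By that probe alone Egr3 met the call rule, since its gap of 1.47 to Control exceeded the range.

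The Fos and Jun families, which together form the AP-1 transcription factors, were less uniform. Fos had a level of 4.72 in Control, 9.86 for Miglustat, 8.0 for D-PDMP and 5.07 for D-PPMP, and the D-PPMP array lay close to Control. Junb had levels of 36.4 in Control and 39.2, 52.8 and 48.9 with the inhibitors, and there the Miglustat array lay closest to Control. Jun differed by 0.15 ± 0.057 (n = 3), while Fosb differed by -0.02 and Jund by -0.18 ± 0.22 (n = 3). Dusp1, a phosphatase that inactivates MAP kinases, was also looked at after its values were seen. Its level was 3.95 in Control and 10.2, 7.05 and 5.22 with Miglustat, D-PDMP and D-PPMP. All of its inhibitor values were above Control, but they were spread too widely for a call (0.87 ± 0.49, n = 3). Smaller differences of one sign were found for Arc (0.54 ± 0.17, n = 3), Maff (0.49 ± 0.16, n = 3), Ier3 (0.36 ± 0.16, n = 3), Myc (0.34 ± 0.12, n = 3) and Ier5 (0.23 ± 0.053, n = 3). None of these 5 reached 1.5-fold.

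**Figure D2:**
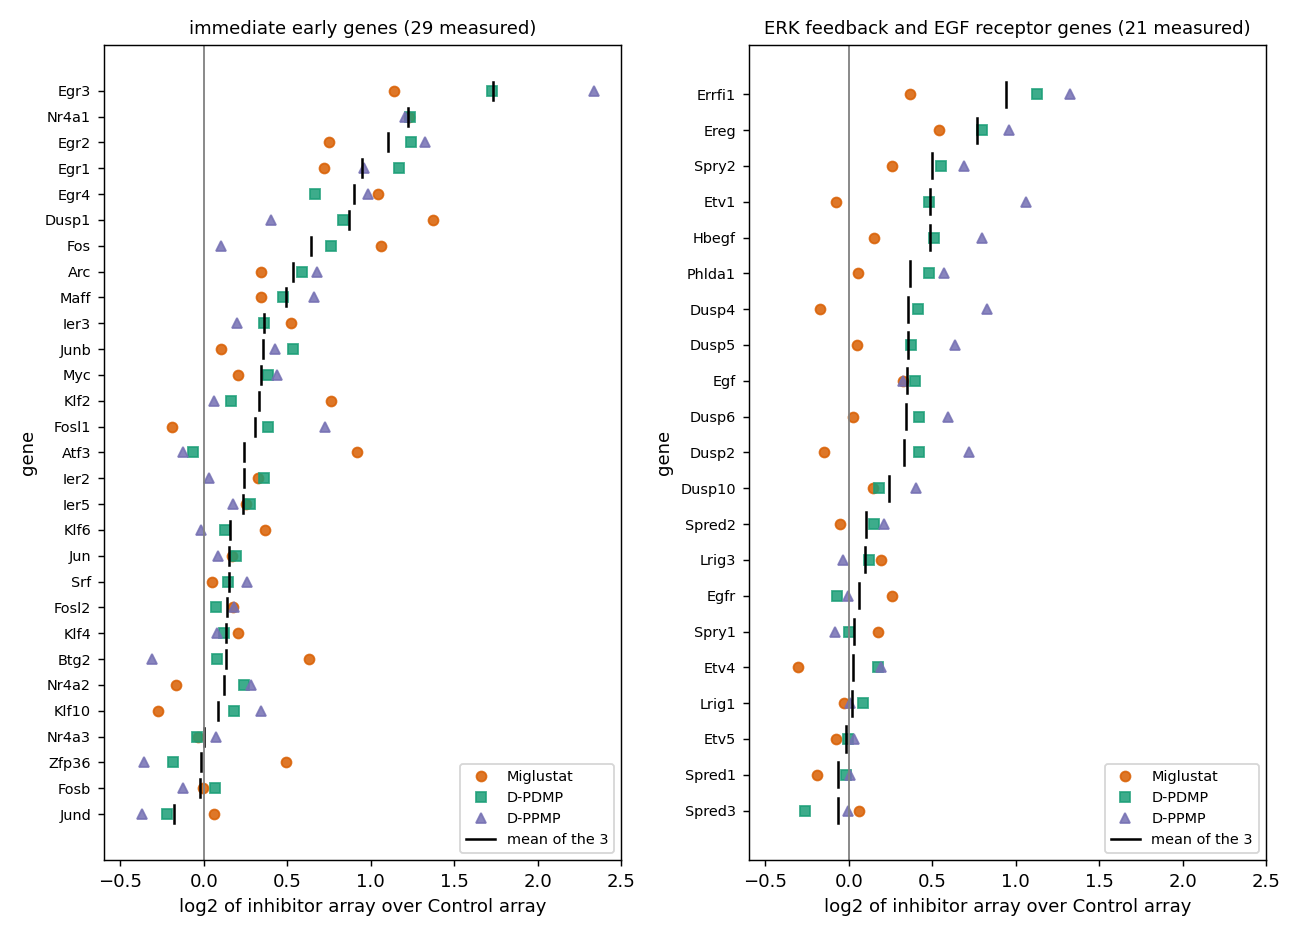
Points give the log2 ratio of each inhibitor array to Control for the measured members of the immediate early list (left) and of the ERK feedback and EGF receptor list (right), and black bars give the mean of the 3. For Nr4a1 the 3 points lie between 1.20 and 1.23, whereas for Errfi1 Miglustat lies at 0.37 and D-PPMP at 1.32.

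The ERK feedback and EGF receptor list holds phosphatases and Sprouty proteins that ERK signalling induces, together with ligands of the EGF receptor. Of its 21 measured members, 9 had all 3 inhibitor arrays above Control and 0 had all 3 below. Over all genes the shares were 21.1% and 26.4%. The median pooled difference was 0.33, but the medians were 0.06 for Miglustat, 0.38 for D-PDMP and 0.41 for D-PPMP. With D-PPMP set apart, the other 3 arrays were all below it for 15 of the 21 members. Over the other scalings the median ranged from 0.11 to 0.33.

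Ereg, which encodes the EGF receptor ligand epiregulin, was the 1 called member. Its level was 0.626 in Control, 0.909 for Miglustat, 1.09 for D-PDMP and 1.22 for D-PPMP, a pooled difference of 0.77 ± 0.21 (n = 3), and 0.56 with normexp, below the limit. Errfi1, which encodes a feedback inhibitor of the EGF receptor and was looked at after its values were seen, had levels of 3.45 in Control and 4.46, 7.56 and 8.64 with the inhibitors. Its pooled difference of 0.94 ± 0.51 (n = 3) was not called because Miglustat lay near Control. Spry2, a Sprouty inhibitor of receptor tyrosine kinase signalling, differed by 0.50 ± 0.22 (n = 3) and Hbegf, another EGF receptor ligand, by 0.49 ± 0.32 (n = 3). Dusp6, the ERK phosphatase, had a level of 15.2 in Control, 15.4 for Miglustat, 20.3 for D-PDMP and 22.9 for D-PPMP. The Dusp6 value of the Miglustat array was thus level with Control. Egfr itself differed by 0.06 ± 0.17 (n = 3).

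Outside these lists the highest called gene was Rgs16, which encodes a GTPase-activating protein for G protein alpha subunits. Its level was 0.0463 in Control, 0.195 for Miglustat, 0.125 for D-PDMP and 0.138 for D-PPMP, a pooled difference of 1.69 ± 0.34 (n = 3), or 3.24-fold. The gene is dim, and with normexp the difference was 0.32. Chrne, the epsilon subunit of the muscle acetylcholine receptor, had a level of 0.118 in Control and 0.233, 0.268 and 0.257 with the inhibitors, a pooled difference of 1.1 ± 0.10 (n = 3). With normexp it was 0.36. Gpnmb, a lysosomal and melanosomal glycoprotein known to accumulate in cells with stored glycolipid, had levels of 0.0811 in Control and 0.143, 0.163 and 0.163 with the inhibitors. The pooled difference of Gpnmb was 0.94 ± 0.11 (n = 3), and 0.25 with normexp.

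The other genes among the 15 highest were as dim as these and less familiar in osteoblasts. Treml2, a receptor of the TREM family, differed by 1.31 ± 0.20 (n = 3), and a second probe that was not well above background on any array gave 1.24. Syt8 (1.00 ± 0.035, n = 3) and Nkpd1 (1.00 ± 0.018, n = 3) had nearly equal values on the 3 inhibitor arrays at levels below 0.1. Xkrx differed by 0.94 ± 0.12 (n = 3), with 1.27 from a second probe. L3mbtl4 differed by 0.92 ± 0.26 (n = 3), but its other probe, not well above background, gave -0.11. The growth factor gene Fgf2, called as a member of the YAP and TEAD target list and of the list of osteoblast growth factors, differed by 0.83 ± 0.24 (n = 3). A second Fgf2 probe gave 0.03, and with normexp the first gave 0.11. Slc16a3, the monocarboxylate transporter for lactate export, differed by 0.71 ± 0.14 (n = 3) at levels between 0.0406 and 0.0709.

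**Figure D3:**
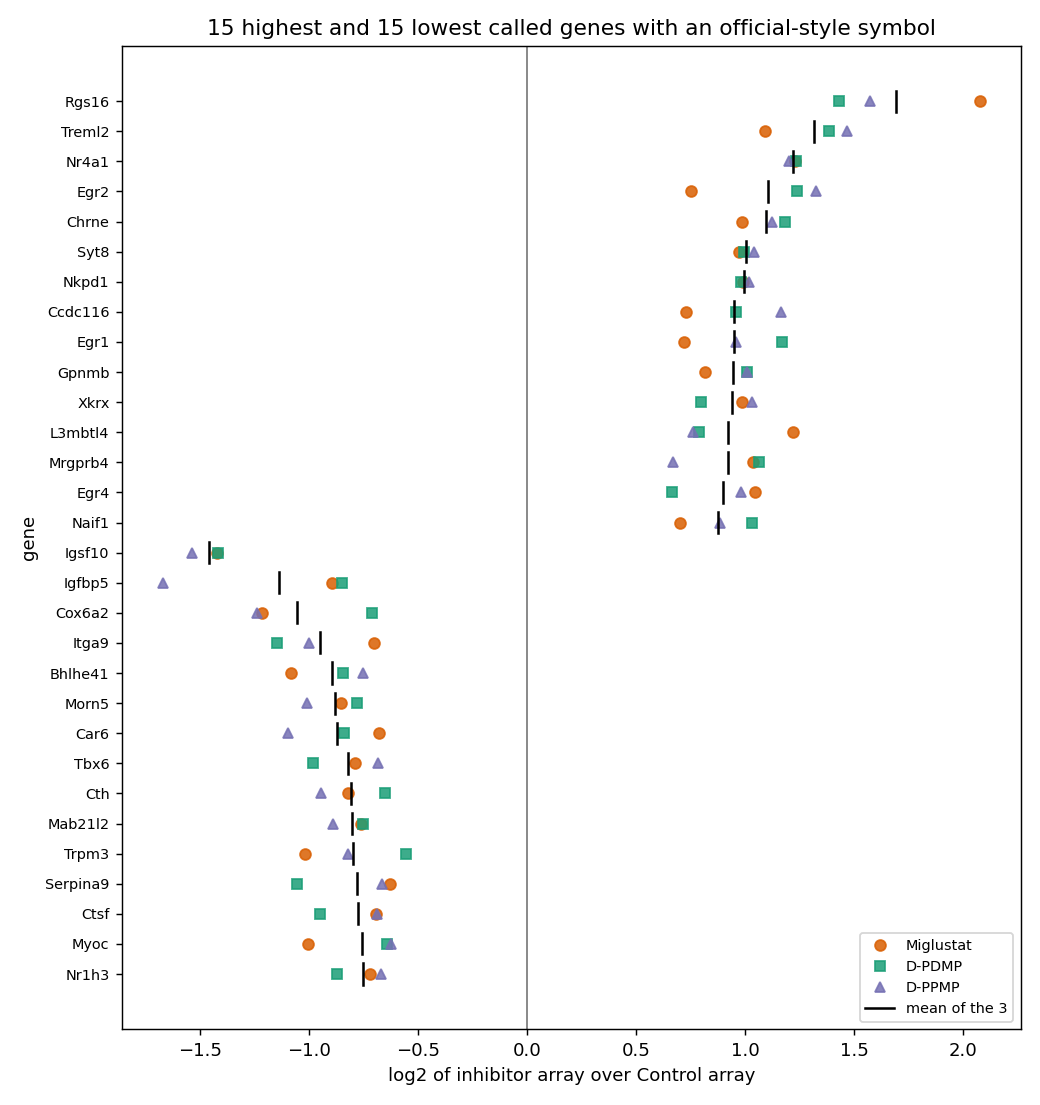
Points give the log2 ratio of each inhibitor array to Control for the 15 highest and the 15 lowest called genes that carry an official-style symbol, and black bars give the mean of the 3. Rgs16 leads the higher genes at 1.69 and Igsf10 the lower ones at -1.46. Only called genes are shown, so the call rule itself keeps all 3 inhibitor arrays of a gene on 1 side of 0.

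The gene with the lowest pooled difference among the called genes was Igsf10, which encodes an immunoglobulin superfamily protein, but its probes disagreed. The brighter probe had a level of 1.84 in Control, 0.684 for Miglustat, 0.686 for D-PDMP and 0.632 for D-PPMP, a difference of -1.46 ± 0.068 (n = 3). A second Igsf10 probe, well above background on all 4 arrays, differed by 0.01, with -0.01, 0.16 and -0.13 on the 3 inhibitor arrays. The mean of the probes was -0.73. The call therefore rests on the single brighter probe, and which probe reflects the gene cannot be told from these arrays.

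Igfbp5, an insulin-like growth factor binding protein that is abundant in bone, had a level of 2.19 in Control, 1.17 for Miglustat, 1.21 for D-PDMP and 0.687 for D-PPMP. Its pooled difference was -1.14 ± 0.46 (n = 3), a 2.20-fold lower level, with D-PPMP the lowest of the inhibitor arrays. Cox6a2, the heart and muscle form of a cytochrome c oxidase subunit, had levels of 2.35 in Control and 1.01, 1.43 and 0.996 with the inhibitors, a pooled difference of -1.06 ± 0.30 (n = 3). It was the only called member of the 35 respiratory chain subunits, whose median was -0.02. Cth, cystathionine gamma-lyase, which makes cysteine from cystathionine, had levels of 1.07 in Control and 0.605, 0.681 and 0.554 with the inhibitors, a pooled difference of -0.81 ± 0.15 (n = 3). Igfbp5, Cox6a2 and Cth were each represented by 1 probe.

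The remaining lower genes were dimmer. Mab21l2 had a level of 0.433 in Control and 0.255, 0.257 and 0.233 with the inhibitors, a pooled difference of -0.80 ± 0.076 (n = 3). Itga9, the integrin alpha 9 chain, differed by -0.95 ± 0.23 (n = 3). The circadian repressor gene Bhlhe41 differed by -0.89 ± 0.17 (n = 3), but its other probe gave -0.01. The mesodermal transcription factor gene Tbx6 differed by -0.82 ± 0.15 (n = 3) and the carbonic anhydrase gene Car6 by -0.87 ± 0.21 (n = 3). Ctsf, the lysosomal protease cathepsin F, differed by -0.78 ± 0.15 (n = 3) at levels of 0.0497 in Control and 0.0257 to 0.0309 with the inhibitors. Nr1h3, the oxysterol receptor LXR alpha, differed by -0.76 ± 0.11 (n = 3), but a second probe that was well above background on 2 arrays gave 0.85. Direction for Nr1h3 was therefore not settled.

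Only 9 genes were called when the background was corrected with normexp, and 8 of them were among the 100. These 8 were Nr4a1 (1.1), Egr2 (1.07), Egr1 (0.98) and Ptgs2 (0.62), which were higher, and Igfbp5 (-1.03), Igsf10 (-1.01), Cox6a2 (-0.91) and Cth (-0.61), which were lower. The ninth was Fndc1 at -0.61, whose probes differed from each other. All 8 had a level above 1 in Control, whereas the 92 other calls were lost. Normexp here adds an offset of 50 to each signal before the log, which shrinks the differences of dim genes. The loss of dim calls was thus largely fixed by the setting and does not separate firm calls from weak ones. With Miglustat, D-PDMP and D-PPMP set apart, normexp left 52, 0 and 6 calls.

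**Figure D4:**
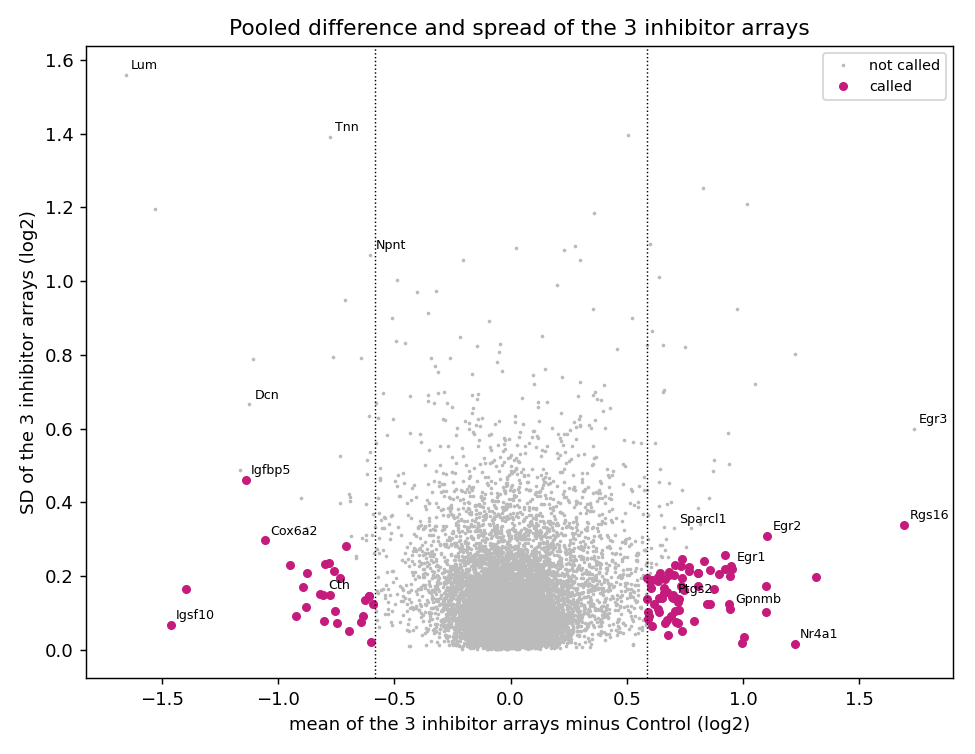
Each point is 1 of 14004 genes, with the mean of the 3 inhibitor arrays minus Control (log2) on the x axis and the SD of the 3 inhibitor arrays (log2) on the y axis, coloured where called, and dotted lines at 1.5-fold. Nr4a1 combines a difference of 1.22 with an SD of 0.016, whereas Lum, Tnn and Dcn pass 1.5-fold with SDs of 1.56, 1.39 and 0.67 and are not called.

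A lower limit of 1.25-fold, chosen after seeing the data and applied with the same gap rule to genes above the median level, brought in genes with small but uniform differences. It called 23 genes (0.328% of 7002) higher and 11 (0.157%) lower with the inhibitors. With the other arrays set apart it called 171 genes (2.44%) for Miglustat, 3 (0.0428%) for D-PDMP and 30 (0.428%) for D-PPMP. For several of the higher genes another probe, well above background on all 4 arrays, gave no such difference. It gave 0.03 for Yars2, -0.08 for Dhps, -0.19 for Grhpr, -0.01 for Ly96 and 0.02 for Snx10. Such probes of Kcnq1ot1 (0.33 to 0.43), Zbtb7c (-0.26) and Ypel3 (-0.25) went the same way as the called probe. A call here can thus rest on 1 probe. These genes and those named next were picked from the 34 called against Control after their values were seen. Ankrd1, a target of YAP and of mechanical load, had a level of 27.4 in Control and 39.9, 39.3 and 39.4 with the inhibitors, a difference of 0.53 ± 0.012 (n = 3). Odc1, ornithine decarboxylase of polyamine synthesis, had levels of 21.4 in Control and 30.4, 32.1 and 30.6 with the inhibitors (0.54 ± 0.042, n = 3), but a second probe gave 0.12. Acvr1, a type I receptor of bone morphogenetic proteins and activins, had levels of 14.7 in Control and 20.3, 21.1 and 19.7 with the inhibitors (0.47 ± 0.047, n = 3), with 0.00 from a second probe.

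Smad7, the inhibitory Smad that TGF-beta signalling induces, differed by 0.45 ± 0.13 (n = 3), with 0.23 from its other probe. On the lower side Vldlr, the very low density lipoprotein receptor, had levels of 9.08 in Control and 6.41, 6.72 and 5.78 with the inhibitors (-0.53 ± 0.11, n = 3), and its other probe gave -0.39. Atf5, a transcription factor of the amino acid stress response, had levels of 147 in Control and 117, 114 and 101 with the inhibitors (-0.41 ± 0.12, n = 3), and its other probe also gave -0.41. Trib3, a pseudokinase induced by ATF4, had levels of 28.8 in Control and 23.8, 22.5 and 20.7 with the inhibitors (-0.37 ± 0.10, n = 3). For Vldlr and Atf5 the probes thus pointed the same way. Sparc, which encodes osteonectin, one of the most abundant non-collagen proteins of bone matrix, had levels of 555 in Control and 434, 406 and 408 with the inhibitors (-0.42 ± 0.054, n = 3), whereas its second probe gave -0.09.

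Vldlr, Atf5, Trib3 and Cth belong to the list of ATF4 targets and amino acid stress genes, which cells switch on when amino acids are short or proteins misfold. Of its 34 measured members, 23 had all 3 inhibitor arrays below Control and 2 had all 3 above, beside 26.4% and 21.1% of all genes. The median pooled difference was -0.18, with medians of -0.11 for Miglustat, -0.20 for D-PDMP and -0.25 for D-PPMP. With D-PPMP set apart, the other 3 arrays were all above it for 27 of the 34 members, against 3 and 2 members with Miglustat and D-PDMP set apart. The median ranged from -0.18 to -0.16 over the other scalings, and from -0.22 to -0.15 when an inhibitor array was left out. Cth was the only member called.

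Among the enzymes of serine synthesis in that list, Phgdh had levels of 82.2 in Control and 71.2, 71.9 and 71.1 with the inhibitors, a difference of -0.20 ± 0.0087 (n = 3). Psat1, the next enzyme of the pathway, differed by -0.26 ± 0.086 (n = 3) and Psph, the last, by -0.23 ± 0.14 (n = 3). Asns, asparagine synthetase, had levels of 95.2 in Control and 85.6, 77.2 and 72.3 with the inhibitors (-0.28 ± 0.12, n = 3). All 4 were below Control on every inhibitor array, but none came near 1.5-fold. The transfer RNA synthetase genes Sars (-0.30 ± 0.081, n = 3), Aars (-0.28 ± 0.14, n = 3), Wars (-0.19 ± 0.029, n = 3) and Nars (-0.18 ± 0.049, n = 3) also had all inhibitor arrays below Control. Slc7a11, the cystine transporter, differed by -0.62 ± 0.30 (n = 3) and was past 1.5-fold without being called. Atf4 itself, at levels of 223 in Control and 243, 219 and 213 with the inhibitors, differed by 0.01 ± 0.10 (n = 3), with Control inside the inhibitor range. Cbs, which acts just before Cth, was dim and differed the other way (0.43 ± 0.41, n = 3).

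The genes of the targeted pathway differed little. Ugcg, the target enzyme's own gene, had a level of 2.73 in Control, 2.91 for Miglustat, 2.88 for D-PDMP and 2.73 for D-PPMP, a pooled difference of 0.06 ± 0.049 (n = 3), and its other probes gave -0.02 and 0.06. B4galt5, which makes lactosylceramide, differed by 0.06 ± 0.10 (n = 3), and St3gal5, which makes the ganglioside GM3, by 0.09 ± 0.074 (n = 3). Of 16 measured genes of glycosphingolipid synthesis, 4 had all inhibitor arrays above Control and 5 had all below, beside 21.1% and 26.4% of all genes. Their median was -0.01, with 0 calls. The farthest members were B3galt4 at -0.25 ± 0.089 (n = 3) and St8sia5 at 0.30 ± 0.61 (n = 3). The inhibitors act on the enzyme, and enzyme activity and lipids were not measured on these arrays.

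Among 17 measured genes of glycosphingolipid breakdown, 9 had all inhibitor arrays below Control and 0 had all above, with a median of -0.08 and medians of -0.07, -0.10 and -0.10 for Miglustat, D-PDMP and D-PPMP. With each of these set apart instead, the other 3 arrays were all above for 6, 3 and 8 members. The members farthest from Control were both dim. Gm2a, the GM2 activator protein, had levels of 0.0512 in Control and 0.0421, 0.0334 and 0.0363 with the inhibitors (-0.47 ± 0.17, n = 3), and Galc, galactosylceramidase, differed by -0.24 ± 0.18 (n = 3). Hexa, the alpha subunit of beta-hexosaminidase, differed by -0.08 ± 0.031 (n = 3). Gla and Glb1, the alpha and beta galactosidases, differed by 0.02 and 0.01. None of the 17 was called. Of 33 lysosome and autophagy genes, 5 had all inhibitor arrays above Control and 13 had all below, with a median of -0.03, and Gpnmb and Ctsf were the called members. Of 33 ceramide and sphingolipid genes 10 had all inhibitor arrays above and 7 all below, with a median of 0.01 and 0 calls. Over all genes the shares were 21.1% all above and 26.4% all below.

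**Figure D5:**
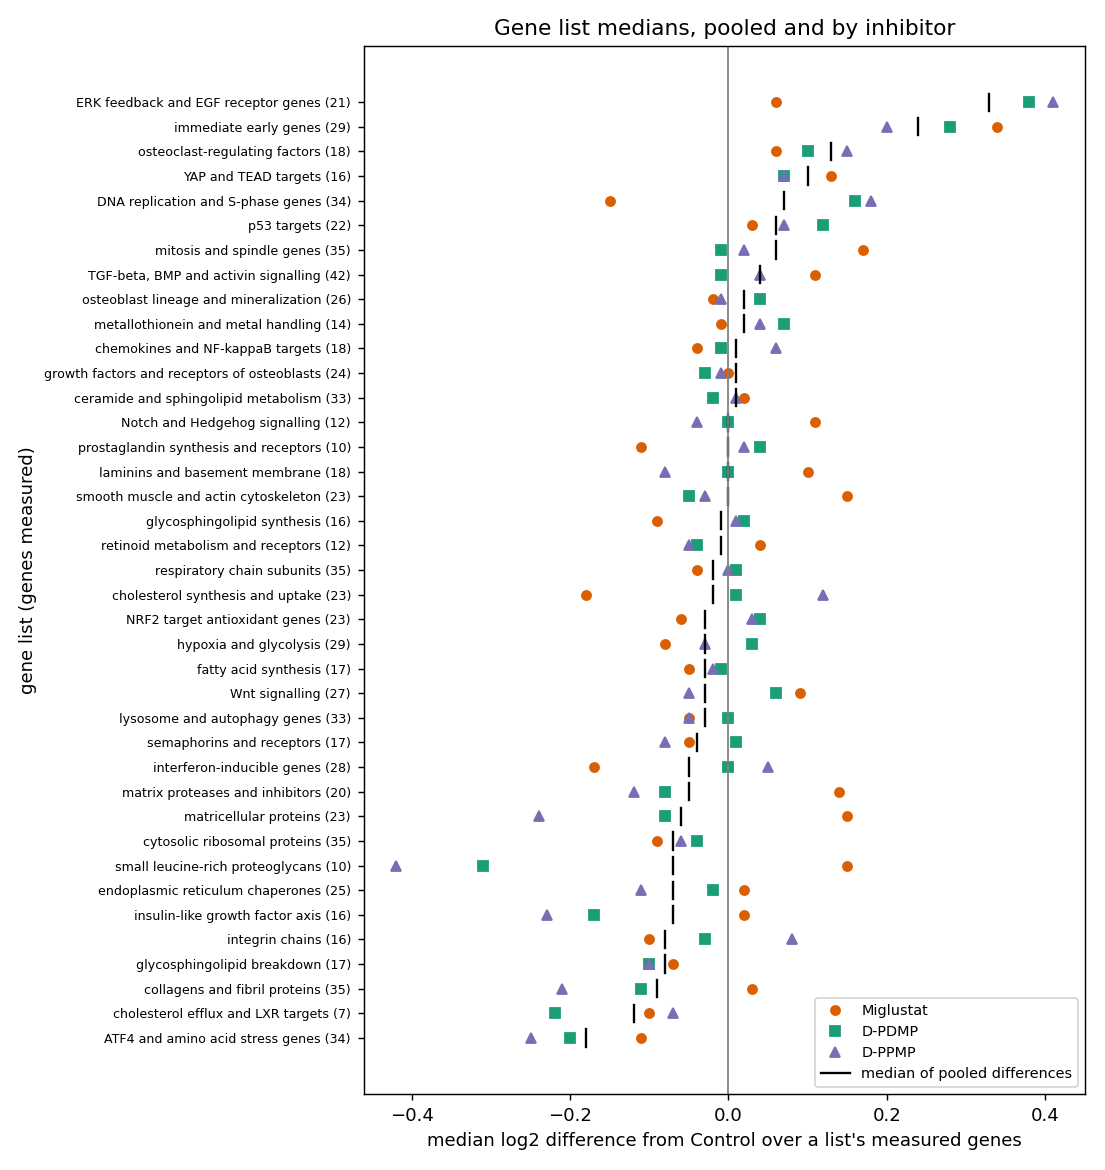
For each of 39 process lists, coloured points give the median log2 difference of its measured genes from Control for 1 inhibitor, and the black bar gives the median of the pooled differences. The pooled medians run from -0.18 for ATF4 and amino acid stress genes to 0.33 for ERK feedback and EGF receptor genes, and for that last list the Miglustat point lies at 0.06.

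Cytosolic ribosomal protein genes, which code for parts of the ribosome, had 29 of 35 members with all inhibitor arrays below Control. None had all above, and the median was only -0.07. Among all genes, 26.4% had all inhibitor arrays below Control and 21.1% had all above. The median of the ribosomal list ranged from -0.07 to -0.01 over the other scalings. With quantile normalization only 7 members had all inhibitor arrays below Control. With Miglustat set apart, the other 3 arrays were all above it for 20 of the 35. Rpl32, among the farthest members, differed by -0.11 ± 0.044 (n = 3) and Rplp0 by -0.01 ± 0.013 (n = 3). Reference genes were of the same order, with Gapdh at -0.11 ± 0.044 (n = 3), Actb at -0.06 ± 0.078 (n = 3), Tbp at -0.05 ± 0.048 (n = 3) and Hprt at 0.01 ± 0.084 (n = 3).

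Cell cycle genes illustrate where the pool joins unlike arrays. Of 35 mitosis and spindle genes 14 had all inhibitor arrays above Control and 0 all below, beside 21.1% and 26.4% of all genes. The pooled median was 0.06, but the medians were 0.17 for Miglustat, -0.01 for D-PDMP and 0.02 for D-PPMP. With Miglustat set apart the other 3 arrays were all below it for 33 of the 35. The DNA replication list had a pooled median of 0.07, made of -0.15 for Miglustat, 0.16 for D-PDMP and 0.18 for D-PPMP. Ccna2, cyclin A2, differed by 0.15 ± 0.015 (n = 3), with 0.03 from a second probe. Gins3, a subunit of the replicative helicase complex, differed by -0.28 ± 0.06 (n = 3). Cholesterol synthesis genes had a pooled median of -0.02 from medians of -0.18, 0.01 and 0.12, and with Miglustat set apart the other arrays were all above it for 18 of 23.

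Signalling lists of bone biology differed from Control by small amounts. For comparison, 21.1% of all genes had all inhibitor arrays above Control and 26.4% had all below. Of 18 osteoclast-regulating factors, 9 had all inhibitor arrays above Control and 3 all below, with a median of 0.13 and Ptgs2 as the called member. Of 42 genes of TGF-beta, BMP and activin signalling, 15 had all above and 7 all below, with a median of 0.04. The 16 YAP and TEAD targets had 8 above and 1 below, with a median of 0.10, and the 22 p53 targets had 8 above and 3 below, with a median of 0.06. Plk3, a p53-responsive kinase gene, differed by 0.54 ± 0.24 (n = 3). Notch1, the receptor, differed by 0.51 ± 0.16 (n = 3). The 7 measured LXR target and cholesterol efflux genes had 0 above and 5 below, with a median of -0.12, led by Nr1h3 with its disagreeing probes.

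The osteoblast lineage list had members on both sides of Control. Of 26 lineage and mineralization genes, 2 had all inhibitor arrays above Control and 6 all below, beside 21.1% and 26.4% of all genes. Their median was 0.02. Runx2, the lineage's master regulator, differed by -0.08 ± 0.033 (n = 3), with -0.08 and 0.19 from its other probes, and Col1a1 by -0.07 ± 0.065 (n = 3). Spp1, osteopontin, had levels of 46.7 in Control, 29.4 for Miglustat, 53.3 for D-PDMP and 60.8 for D-PPMP, so that the pooled difference of -0.03 ± 0.56 (n = 3) averaged opposite values. The cell line's identity markers were measured on all arrays for 11 of 14. Levels summed over all 14 were 1520 in Control and 1420, 1340 and 1280 with the inhibitors, lower on every inhibitor array. Levels are not comparable between genes, so a sum mostly follows its brightest probes. Sparc contributed 555 of that sum in Control and 434, 406 and 408 with the inhibitors, while its second probe differed by -0.09. Of the 11, 0 had all inhibitor arrays above Control and 4 all below, beside 21.1% and 26.4% of all genes. Alpl and Ibsp, which mark maturing osteoblasts, did not pass background on any of the arrays. The RNA is that of a whole culture, in which fewer cells of a type and less RNA per cell cannot be told apart.

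Some markers of other cell types were well above background. The sums given here run over all members of a list with a probe, whether or not they passed. Endothelial markers, of which 7 of 10 did not pass background on any of the arrays, had summed levels between 0.32 and 0.409. Of the macrophage and osteoclast markers, 8 of 12 passed background on at least 1 array, with summed levels between 25.5 and 27.5. Cd14, Csf1r, Itgam, Fcer1g and Ocstamp passed on every array, whereas Adgre1, Ptprc, Lyz2 and Tyrobp passed on none. Of the skeletal muscle markers 5 of 10 passed, with sums between 18.2 and 20.8. Acta1, Tnnt3, Tnni1 and Mylpf passed on every array, whereas Ckm, Myod1, Myog, Myf5 and Myf6 passed on none. Of the neural markers 9 of 10 passed, with sums of 31.0 in Control and 28.1 to 29.5 with the inhibitors. Of the epithelial markers 8 of 10 passed, with sums of 10.5 in Control and 7.32, 11.2 and 9.69 with the inhibitors, mostly from Krt14 (10.1 in Control and 6.97, 10.8 and 9.25). Of the chondrocyte markers 5 of 10 passed, with sums of 66.3 in Control and 86.8, 54.8 and 52.1 with the inhibitors, nearly all from Col2a1. Adipocyte markers, of which 6 of 10 passed, had sums between 1.15 and 1.33. Their part in the results above was not tested.

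Past 1.5-fold were 182 genes, of which 82 were not called, 50 higher and 32 lower with the inhibitors. For 9 of the 82 Control lay inside the range of the inhibitor arrays, and for 73 the gap to the nearest inhibitor was too small. Several secreted matrix genes were among them. Lum, the proteoglycan lumican, had levels of 0.562 in Control, 0.605 for Miglustat, 0.077 for D-PDMP and 0.122 for D-PPMP, giving a pooled difference of -1.66 ± 1.56 (n = 3). Dcn, decorin, had levels of 20.5 in Control, 15.8 for Miglustat, 6.51 for D-PDMP and 8.15 for D-PPMP (-1.12 ± 0.67, n = 3). Tnn, tenascin-N, had levels of 1.55 in Control, 2.70 for Miglustat, 0.622 for D-PDMP and 0.438 for D-PPMP (-0.78 ± 1.39, n = 3). In each of these genes both ceramide analogues were low, while Miglustat lay nearer to Control. Miglustat differed from Control by 0.10 for Lum, -0.38 for Dcn and 0.80 for Tnn, so the pooled mean joined unlike values.

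The imprinted genes Igf2 and H19, looked at after their values were seen, had the same pattern. Igf2 had levels of 0.340 in Control, 0.275 for Miglustat, 0.0525 for D-PDMP and 0.114 for D-PPMP (-1.53 ± 1.19, n = 3). H19, the neighbouring noncoding RNA, had levels of 0.110, 0.0932, 0.0319 and 0.0451 in that order (-1.11 ± 0.79, n = 3). Igfbp2 differed by -0.71 ± 0.95 (n = 3), with Miglustat above Control. In the insulin-like growth factor list of 16 measured genes, Igfbp5 was thus the only member called. Lama1, a laminin chain, was lowest with Miglustat (levels of 3.21 in Control, 1.42, 2.42 and 2.09), a difference of -0.74 ± 0.40 (n = 3). Of 35 collagen and fibril genes, 2 had all inhibitor arrays above Control and 10 all below, beside 21.1% and 26.4% of all genes. Their medians were 0.03 for Miglustat, -0.11 for D-PDMP and -0.21 for D-PPMP.

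Some genes were well above background on all 3 inhibitor arrays and not in Control. There were 289 such genes (1.26% of 22911), against 86 (0.375%) well above background in Control alone. With Miglustat, D-PDMP and D-PPMP set apart, the other 3 arrays alone passed for 73, 82 and 51 genes, and the single array alone for 158, 243 and 430. The Control array had the fewest probes well above background, which moves with these counts, and its part in them was not tested. The direction of each gene was fixed by this choice, so a bound gives size only. Bounds against the lowest detectable signal were small for the higher genes. For the mean of the 3 inhibitor arrays, Svopl was at least 2.63-fold higher and Trim42 at least 2.42-fold higher. Svopl was uneven, with levels of 0.0385, 0.0603 and 0.146 for Miglustat, D-PDMP and D-PPMP. Such a bound divides the brighter mean by the detection floor of the dim side (its lowest probe above background) or by the measured value there, whichever is larger. Slco1a4, an organic anion transporter, was at least 6.86-fold lower with the inhibitors. Lrrc69 was at least 4.48-fold lower and Pf4, platelet factor 4, at least 3.99-fold lower. Each of these bounds rests on 1 dim probe value of the Control array, at levels of 0.168, 0.11 and 0.0976 in that order.

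Probes without a gene name behaved differently from named ones. Over all 31514 probes, 434 (1.38%) were called higher with the inhibitors and 60 (0.19%) lower. With the other arrays set apart, the counts were 180 higher and 187 lower for Miglustat, 101 and 49 for D-PDMP, and 61 and 230 for D-PPMP. Over probes, Control thus had the most calls (494 against 367 for Miglustat), whereas over named genes Miglustat had. Of the probes called higher against Control, 338 came from the 10761 unnamed probes and 96 from the 20753 named ones. Probes for full-length cDNA clones with AK accessions stood out by their count, with 132 called higher and 6 lower among 2542, and a median difference of 0.144. Among the 1194 of these clones in the dimmest of 4 bins of probes, 82 were called higher and 6 lower with Control set apart (7.37%). In the same bin of named probes, 76 were higher and 26 lower of 3515 (2.90%). With D-PPMP set apart, 4 of those dim clones were called higher and 31 lower, and with Miglustat and D-PDMP the counts were 10 and 12, and 6 and 6. The share of probes well above background was lowest in Control and highest with D-PPMP, and its part in this was not tested.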

How the data were processed

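Total RNA from 4 MC3T3-E1 cultures was labelled with Cy3 and hybridised to Agilent one-colour arrays, per the labels' protocols. The deposited scanner files hold intensity values from Agilent Feature Extraction 12.1.1.1, per the file headers, which record a background correction within each array and no step between arrays. The authors also deposited a table of log2 values, which matched log2 of the processed signal less the array's 75th percentile and was used as an alternative. Its column medians were -4.09, -3.99, -3.99 and -3.88 for the Control, Miglustat, D-PDMP and D-PPMP arrays. The match settled its scale and direction and showed that it is not centred on genes.

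Control and outlier spots (66 to 85 per array) were left out, log2 signals were averaged per probe, then lowered by the 75th percentile of that array's non-control probes. Probes were named by accession without version through a RefSeq table of GRCm38.p6 (names only; 32994 of 56605 probes, 22911 genes). Each gene is represented by the probe with the highest mean level. Levels are thus comparable between arrays, not between genes. Calls used the rule given above, without a test; the procedure was tested on simulated data.

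The comparison, its members, the 47 gene lists (1098 of 1106 symbols had a probe) and the rule for named genes were chosen with earlier results of these data known. The rule named the 15 highest and 15 lowest called genes with an official-style symbol, up to 4 called members or else the 2 most distant of each list, the 3 highest and lowest with each other array set apart, the 5 highest bounds per direction, and fixed pathway, osteoblast and reference genes. Genes named outside it are said to have been chosen after their values were seen, or are members given to show how a list varied. Alternatives were other scalings, filters, fold limits, weights of the 3 arrays, each inhibitor array left out, and limma 3.58.1 in R 4.3.3. The scanner files hold no mean spot signal, so normexp (offset 50) used the median spot signal in place of the mean planned. Nothing was known of the spread between cultures.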

Additional observations from a re-analysis of the deposited data

How the results depend on the processing

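The counts of 72 higher and 28 lower genes were within 1.5 times of these under the 75th percentile over well-measured probes, the authors' log2 table, the mean of a gene's probes, outlier spots kept, Miglustat weighted as the ceramide analogues together, and the median of the 3 arrays. They were 4 higher and 5 lower with normexp, 31 and 54 with quantile normalization, 31 and 63 with cyclic loess, 421 and 82 over genes well above background on at least 1 array, 4 and 0 above the median level, 7 and 4 at 2-fold, 119 and 54 with any gap, and 0 and 0 by limma at an adjusted p under 0.05. At 1.25-fold over genes above the median level, a setting chosen after seeing the data, they were 23 and 11. Quantile and loess normalization thus turned the split from mostly higher to mostly lower; the cause was not tested. Leaving out 1 inhibitor array gave 88 to 166 higher and 40 to 96 lower genes, the most without Miglustat (166 and 96), where only 2 arrays have to lie together. Control exceeded Miglustat in total gene calls over genes well above background on at least 1 array (503 against 376), as it did over all probes in the main setting (494 against 367). Of the list medians, 614 values kept their direction within the spread, 41 moved by more, and 1 reversed: the neural markers gave 0.12 with the mean of a gene's probes against -0.08. Of the values for named genes, 1667 kept within the spread and 87 moved. Signal over background limits the dim genes, whose differences shrank most with normexp, as its offset brings about. No paired analysis was possible because each group had 1 array and the labels carry no replicate numbers.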

Other observations

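Among probes for cDNA clones without a gene name, the clones with the largest pooled differences were looked at after their values were seen. The clone AK038086 had a level of 0.0314 in Control and 0.0815, 0.0818 and 0.0714 with Miglustat, D-PDMP and D-PPMP, a difference of 1.31 ± 0.11 (n = 3). The clone AK009110, brighter than most, had levels of 0.242 in Control and 0.547, 0.569 and 0.658 with the inhibitors, a difference of 1.28 ± 0.14 (n = 3). The inhibitor arrays were farther apart for AK042906, with levels of 0.0888 in Control and 0.164, 0.183 and 0.251, a difference of 1.14 ± 0.32 (n = 3). Probes against genomic regions, a class of similar brightness, were called higher in 58 and lower in 4 of 2202 cases, with a median difference of 0.022. The AK clones had a median of 0.144 at a median log2 level of -2.68, against -2.60 for the genomic regions.

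Genes called with another array set apart, by the same rule, had Control lying with the remaining inhibitors, as the rule requires. With Miglustat set apart the other arrays were higher for Ramp3, a calcitonin receptor accessory protein (levels of 1.76 in Control, 0.604 with Miglustat, 1.62 and 1.92 with D-PDMP and D-PPMP). They were lower for Agt, angiotensinogen (0.0981 in Control, 0.473 with Miglustat, 0.0987 and 0.113). With D-PDMP set apart they were lower for Car9, carbonic anhydrase IX (0.260 with D-PDMP against 0.0806 to 0.1). With D-PPMP set apart they were lower for Fga, fibrinogen alpha chain (0.284 with D-PPMP against 0.088 to 0.114). A second Car9 probe, well above background on all 4 arrays, gave a pooled difference from Control of -0.35 against 0.52 for the first. Its differences were -0.38, -0.24 and -0.42 for Miglustat, D-PDMP and D-PPMP. On that probe D-PDMP lay between Control and the other inhibitors, so the Car9 call rests on the first probe.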
